A study of Oryza sativa Indica Group with 5 samples.

Results

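The genes described here make, break down or act on abscisic acid (ABA) in seed, or set seed dormancy. They were 9 loci chosen by name and MSU rice locus identifier, of 48857 loci with a probe on the array. They comprise the synthesis genes NCED1 (LOC_Os02g47510, chromosome 2), NCED3 (LOC_Os03g44380, chromosome 3) and NCED5 (LOC_Os12g42280, chromosome 12). The breakdown genes are ABA8ox1 (LOC_Os02g47470, chromosome 2), ABA8ox2 (LOC_Os08g36860, chromosome 8) and ABA8ox3 (LOC_Os09g28390, chromosome 9). The regulators are VP1 (LOC_Os01g68370) and ABI5 (LOC_Os01g64000), both on chromosome 1, and SDR4 (LOC_Os07g39700, chromosome 7). All 9 had a probe, and 8 could be tested among the 28945 loci bright enough for a test.

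Whole developing seed of Oryza sativa, Indica group, was sampled 16 days after flowering from untreated glasshouse plants. Each of the 5 single-colour arrays carried RNA of another accession. The high-amylose group held 3 accessions of haplotype 8, and the waxy group, with grain low in or free of amylose, held 2 accessions of haplotype 4. The labels name no other genetic change, and they give no repeat array of any accession, so the spread within a group joins differences between accessions to differences between arrays.

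ABA holds the maturing embryo in dormancy, drives the late programme that protects seed against drying, and opposes germination. Its level depends on a cleavage of epoxycarotenoids by NCED enzymes, which is the committed step of synthesis, and on hydroxylation by the ABA8ox enzymes, cytochromes P450 of the CYP707A family, which start breakdown. Receptors of the PYL family that bind ABA inhibit clade A protein phosphatases 2C, which frees SnRK2 kinases to activate bZIP factors such as ABI5. VP1, a B3-domain factor named for a viviparous maize mutant, works beside these bZIP factors on seed genes. SDR4 was identified as a rice seed dormancy locus, and its expression needs VP1.

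Levels are given as log2 of the processed signal minus the 75th percentile of that array, so that 0 stands for the array's own 75th percentile. Levels of different genes come from different probes and cannot be ranked against each other. The 75th percentile itself was 88.8 to 183 on the high-amylose arrays and 203 to 212 on the waxy arrays, with high-amylose replicates 2 and 3 the dimmest. No spot was saturated. These dimmer arrays shared a scan date, high-amylose replicate 1 had its own, and both waxy arrays had another, so scan date and group cannot be told apart. The seed markers were present on every array: all 10 tested endosperm genes of the 11 listed, and all 5 embryo and aleurone genes, were well above background on all 5 arrays. GBSSI, the starch synthase behind waxy grain, was at 8.21 on waxy replicate 1, within the 7.96 to 8.46 of the high-amylose arrays, and at 3.70 on waxy replicate 2. Differences without a waxy array are given for several members, with the assumption that the remaining one varies like the high-amylose arrays.

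None of the 8 tested genes passed the test between the groups. With limma and Benjamini-Hochberg adjustment over all loci, 0 of 8 passed, and the adjusted p was 1.00 for each. An unadjusted limma p under 0.05 was found at 0 of 8, against 3.40% of all tested loci. Over all loci, 8 of 28945 passed, or 0.0276%, so a count of 0 among 8 genes is close to what the background gives. The high-amylose and waxy arrays overlapped at every tested member. Across all tested loci, 8.52% had every high-amylose array above both waxy arrays and 5.03% had every one below. The median difference of the 8 genes, high-amylose minus waxy, was 0.04, against 0.03 for all tested loci. Leaving out any single array, or using any of the other scalings, filters and probe rules, also called 0 members.

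**Figure D1:**
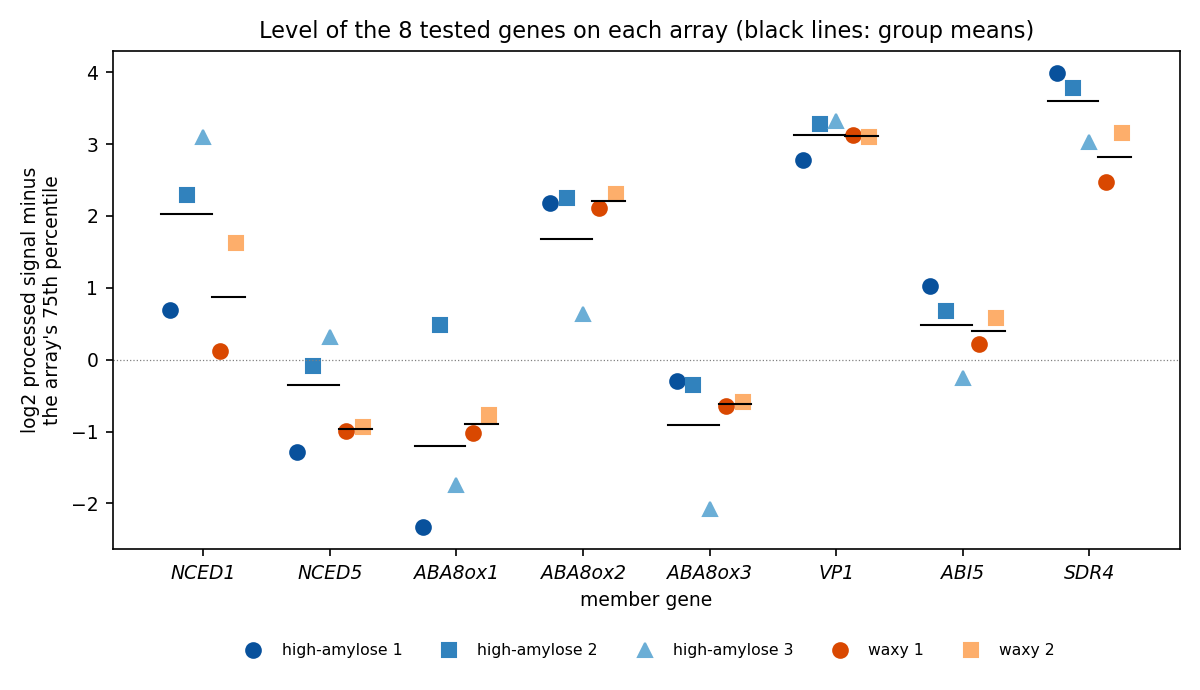
Level of the 8 tested ABA and dormancy genes on each array, as log2 processed signal minus the array's 75th percentile (vertical axis), with 1 point per array, blue for the 3 high-amylose and orange for the 2 waxy accessions, and black lines at the group means. The groups overlap at all 8 genes, and VP1 varies least (2.78 to 3.31). High-amylose replicate 3 (triangle) is the highest array for NCED1, NCED5 and, by a small margin, VP1. It is the lowest for ABA8ox2, ABA8ox3 and ABI5.

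NCED1 had the widest range over the 5 arrays of the 8 tested members, each read by its brightest probe. Its level was 0.69, 2.29 and 3.10 in the high-amylose accessions, replicates 1 to 3, and 0.12 and 1.63 in the waxy accessions, replicates 1 and 2. The order of the arrays thus interleaved the groups: the 2 dimmer high-amylose arrays stood at the top, waxy replicate 2 came next, and high-amylose replicate 1 and waxy replicate 1 were lowest. The high-amylose mean was 2.03 ± 1.23 (SD, n = 3) and the waxy mean 0.87 ± 1.07 (SD, n = 2). The fitted difference was 1.15 (SE 0.72, 95% interval -0.47 to 2.78), or 2.23-fold, and it did not pass (limma adjusted p = 1.00). It was 0.40 without waxy replicate 1, 1.91 without waxy replicate 2, 1.82 without high-amylose replicate 1 and 0.62 without high-amylose replicate 3. The accessions within a group differed by more than the group means did, by 5.31-fold among the high-amylose accessions and 2.85-fold between the waxy ones. Only 5.27% of all tested loci had a wider range over the 5 arrays than the 2.98 of NCED1.

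A second NCED1 probe followed the same order of arrays. It gave -0.59, 1.18 and 1.88 in high-amylose seed, against -1.94 and 0.06 in waxy seed. Its gap to the first probe was 1.11 to 1.29 on the high-amylose arrays and wider, 1.57 to 2.06, on the waxy arrays. Tested on its own, its difference was 1.76 (SE 0.80, limma adjusted p = 1.00). The pattern of NCED1 across accessions was therefore seen with both probes, which target the same transcript model.

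NCED5 showed a related pattern at a smaller range. Its level was -1.28, -0.09 and 0.31 in high-amylose seed, against -0.99 and -0.94 in waxy seed. The waxy accessions differed by 0.05 and lay between high-amylose replicate 1 below them and replicates 2 and 3 above them. High-amylose minus waxy, NCED5 was at 0.61 (SE 0.53, 95% interval -0.58 to 1.79). It was 0.27 without high-amylose replicate 3 and 1.07 without high-amylose replicate 1. With a separate term for high-amylose replicates 2 and 3, which leaves replicate 1 alone to stand for high-amylose seed, the differences of both genes turned negative, to -0.18 for NCED1 and -0.32 for NCED5.

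NCED3, the third synthesis gene, was below clear detection on all 5 arrays. Its processed signal was 14.1, 4.73 and 2.69 units in high-amylose seed, against 3.51 and 3.31 units in waxy seed. No fold is given, since both groups lie below clear detection, and the array sets only an upper limit on its transcript here.

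ABA8ox2 was set apart by a single accession. Its level was 2.17, 2.25 and 0.63 in high-amylose seed, against 2.10 and 2.31 in waxy seed. Of the 5 arrays, 4 lay within about the same narrow band, from 2.10 to 2.31, and high-amylose replicate 3 lay below them. Between the groups the difference was -0.52 (SE 0.55, 95% interval -1.77 to 0.72), and without high-amylose replicate 3 it was 0.01. It was -0.80 without high-amylose replicate 2. High-amylose replicate 3 was 1.58 below the mean of the other 4 arrays.

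ABA8ox3 had the same single low accession. Its level was -0.29, -0.36 and -2.07 in high-amylose seed, against -0.64 and -0.59 in waxy seed. Here too 4 arrays lay close together, and high-amylose replicate 3 was 1.60 below their mean. The groups differed by -0.29 (SE 0.58, 95% interval -1.60 to 1.02). It was -0.60 without high-amylose replicate 1 and -0.56 without replicate 2. Without high-amylose replicate 3 it was 0.29, so the sign of the group difference rests on that accession.

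ABA8ox1 gave different pictures with different probes. The brightest probe, for transcript model LOC_Os02g47470.2, read -2.32, 0.48 and -1.74 in high-amylose seed, against -1.03 and -0.77 in waxy seed. Both waxy values fell inside the high-amylose range, which was 6.99-fold wide. A second probe, for model LOC_Os02g47470.1, read -3.27, -1.25 and -2.85 in high-amylose seed, against -5.87 and -2.95 in waxy seed. It was well above background on 3 of the 5 arrays, and high-amylose replicate 3 and waxy replicate 1 were the others. The third probe, also for LOC_Os02g47470.1, stayed below clear detection on all 5 arrays.

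The tested ABA8ox1 probes disagreed on the direction of the group difference. The first gave -0.30 (SE 0.74, 95% interval -1.96 to 1.37), the second a measured 1.95 (SE 0.87) and the mean of both 0.83. The last 2 values rest in part on the second probe at waxy replicate 1, where it was not well above background and has only an upper limit, so their size is not firm. Neither probe passed (limma adjusted p = 1.00 for both). On the 3 arrays that detected both probes clearly, the first stood 0.94, 1.73 and 2.18 above the second. With the first probe alone the difference was 0.27 without high-amylose replicate 1, -1.13 without replicate 2, -0.024 without replicate 3, -0.42 without waxy replicate 1 and -0.17 without waxy replicate 2. Whether the accessions differ in sequence under these probes was not tested.

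**Figure D2:**
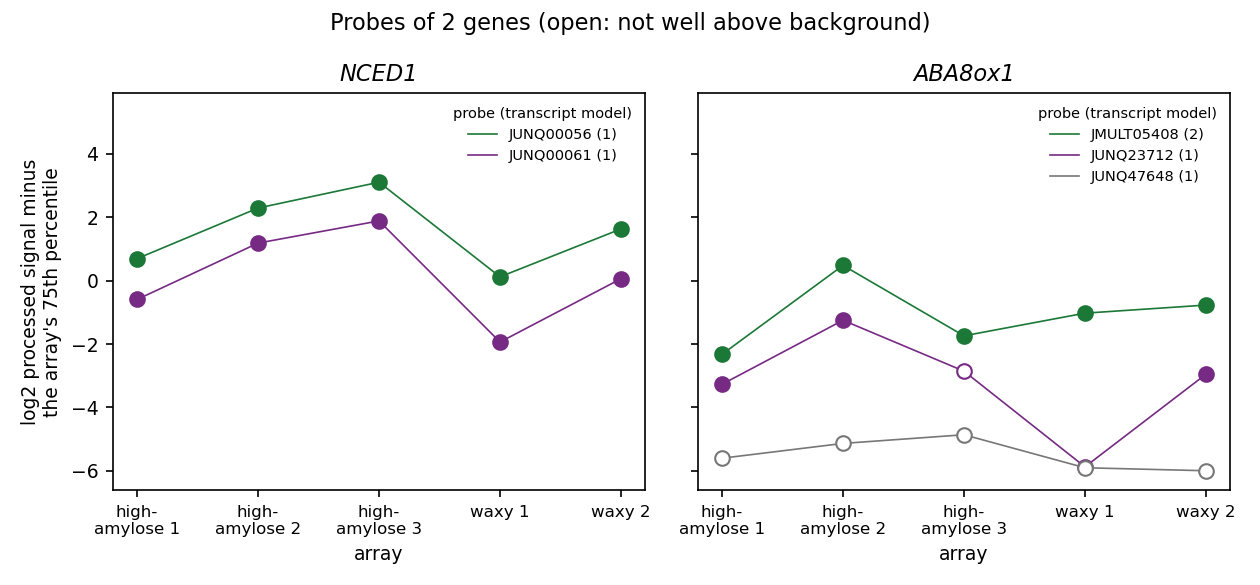
Every probe of NCED1 (left, 2 probes) and ABA8ox1 (right, 3 probes) on each array (horizontal axis), as log2 processed signal minus the array's 75th percentile (vertical axis), with filled points where the spot was well above background, open points where it was not, and lines that only join the points of a probe. The NCED1 probes share an order of arrays, with a gap of 1.11 to 1.29 on the high-amylose arrays and 1.57 to 2.06 on the waxy arrays. The first 2 ABA8ox1 probes part most at waxy replicate 1, where they read -1.03 and -5.87 and the second was not well above background.

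In high-amylose replicate 3 both tested synthesis genes were the highest of the 5 arrays, and 2 of the 3 breakdown genes, ABA8ox2 and ABA8ox3, were the lowest. ABA8ox1 was lowest on high-amylose replicate 1. On high-amylose replicate 3 NCED1 was 1.92 and NCED5 1.14 above the mean of the other 4 arrays. ABA8ox1 was 0.83, ABA8ox2 1.58 and ABA8ox3 1.60 below that mean. The mean of the tested synthesis genes minus the mean of the breakdown genes was 2.77 on replicate 3, 0.31 on high-amylose replicate 2 and -0.15 on high-amylose replicate 1. It was -0.58 and 0.03 on the waxy arrays. Only changes of this quantity between arrays have a meaning, because the probes differ. Its group difference was 1.25, below the within-group SD of 1.31, and it was 0.35 without high-amylose replicate 3 and 0.12 with the term for replicates 2 and 3. The high-amylose mean was 0.98 ± 1.57 (SD, n = 3) and the waxy mean -0.27 ± 0.43 (SD, n = 2).

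High-amylose replicates 1 and 3 were the extreme arrays in general. Replicate 3 was the highest of the 5 arrays for 3 of the 8 members and the lowest for 3, while over all tested loci it was the highest for 36.5% and the lowest for 23.7%. Replicate 1 was likewise the highest for 3 members and the lowest for 3, with 19.5% and 30.6% of all tested loci. Replicate 3 was the dimmest array by the 75th percentile. On replicate 3, photosynthesis genes, markers of green outer seed layers, lay 2.35 above their means over the arrays at the median gene. Embryo and aleurone markers lay 0.99 below theirs. Not every photosynthesis gene rose on replicate 3: GAPB was at its lowest of the 5 arrays, at 2.48, and GAPA read 2.01, near the 2.03 and 1.97 of the waxy arrays. LHCA, LHCB (LOC_Os07g37240) and RBCS (LOC_Os12g19381) were each clear on only 2 of the 5 arrays, and PSBO on 3, so their means include dim readings. LHCA, this LHCB and this RBCS were clear on high-amylose arrays alone, so they were tested only through the group in which they read higher.

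The marker lists are set beside the members here, and whether they moved together was not tested. The summed level of the 5 embryo and aleurone markers, in multiples of the 75th percentile, ran from 688 to 1571 in the high-amylose group and from 720 to 1038 in the waxy group. The sum was lowest on high-amylose replicate 3, the array on which ABA8ox2, ABA8ox3 and ABI5 were lowest. It was almost as low, at 720, on waxy replicate 1. There ABA8ox2 read 2.10 and ABA8ox3 -0.64, near the other waxy array, and ABI5 read 0.22. The sum of the 10 tested of 12 photosynthesis markers ran from 14.9 to 25.9 in the high-amylose group and from 13.5 to 13.9 in the waxy group, and the median photosynthesis marker ordered the high-amylose arrays as NCED1 and NCED5 did. The sum of the 10 endosperm markers ran from 917 to 1124 and from 874 to 1044. Of the markers, 2 photosynthesis genes were too dim to be tested and 1 endosperm gene, PUL, had no probe. The part of tissue makeup in the member values was not tested, and in whole seed fewer cells of a type cannot be told apart from less transcript per cell.

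Of each marker list, the 2 genes with the smallest unadjusted p were GBSSI and AGPS2, PER1A and OLE16, and LHCA and an LHCB. GBSSI was at 2.29 (SE 1.04), and AGPS2, a subunit of ADP-glucose pyrophosphorylase, at -0.72 (SE 0.44). PER1A, a peroxiredoxin of embryo and aleurone, was at 0.54 (SE 0.44), and the oil-body protein gene OLE16 at 0.47 (SE 0.60). The antenna protein gene LHCA was not well above background in waxy seed and was clear on 2 of the 3 high-amylose arrays. Its measured difference was 2.45. That size is not firm, since the waxy arrays and the remaining high-amylose array have only upper limits. LHCB (LOC_Os07g37240), likewise dim in waxy seed and clear on 2 of the 3 high-amylose arrays, had a measured difference of 2.12. LHCA and this LHCB were tested only through the high-amylose arrays, so their small p is not read as a result. All 6 had a limma adjusted p of 1.00.

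**Figure D3:**
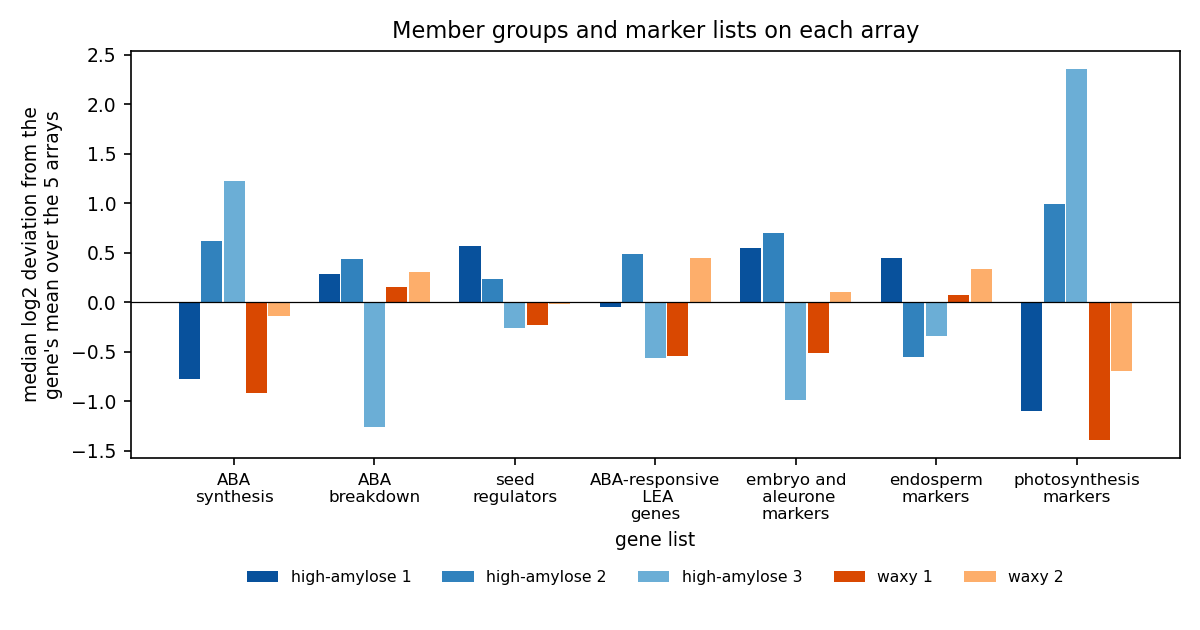
Median deviation of the genes in each list from their own mean over the 5 arrays (vertical axis, log2 units), with 1 bar per array, for the 3 groups of members and 4 other lists (horizontal axis). On high-amylose replicate 3 the bars stand at 1.22 for ABA synthesis, -1.26 for breakdown, -0.99 for embryo and aleurone markers and 2.35 for photosynthesis markers. The photosynthesis bar is a median that includes genes dim on some arrays, and GAPB was at its lowest on that array.

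VP1 was the steadiest member. Its level was 2.78, 3.27 and 3.31 in high-amylose seed, against 3.13 and 3.10 in waxy seed. The whole range was 0.54, and 93.9% of tested loci had a wider one. Its group difference was 0.01 (SE 0.41), with a 95% interval from -0.92 to 0.94, so differences of almost 2-fold in either direction stay within the error. The sign of so small a value turned under quantile scaling, both normexp settings and the deposited log2 values, where it lay between -0.17 and -0.06. It also turned without waxy replicate 2, to -0.0057, and without high-amylose replicates 2 and 3 in turn, to -0.065 and -0.086.

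ABI5, the bZIP factor that acts on ABA-response promoters in seed, varied more. Its level was 1.02, 0.68 and -0.26 in high-amylose seed, against 0.22 and 0.58 in waxy seed. Both waxy accessions fell inside the high-amylose range, whose low end was again replicate 3. The fitted difference was 0.08 (SE 0.49, 95% interval -1.02 to 1.18), and its sign turned when any of 3 arrays was left out, to -0.19 without high-amylose replicate 1, -0.023 without replicate 2 and -0.11 without waxy replicate 1. It was 0.45 without high-amylose replicate 3 and 0.26 without waxy replicate 2.

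With each member read by its brightest probe, SDR4 had the smallest unadjusted p. It was also the 1 gene that kept its sign under every alternative. The second NCED1 and ABA8ox1 probes, each tested on its own, ranked ahead of SDR4 by unadjusted p, and neither passed. The ABA8ox1 result rests in part on dim readings. The level of SDR4 was 3.98, 3.78 and 3.02 in high-amylose seed, against 2.48 and 3.16 in waxy seed. High-amylose replicates 1 and 2 lay above both waxy accessions, and replicate 3 lay between them. The high-amylose mean was 3.60 ± 0.51 (SD, n = 3) and the waxy mean 2.82 ± 0.48 (SD, n = 2). The fitted difference was 0.78 (SE 0.47, 95% interval -0.28 to 1.84), or 1.72-fold, with an unadjusted limma p of 0.131 and an adjusted p of 1.00. It was 0.44 without waxy replicate 1 and 1.12 without waxy replicate 2, it ranged from 0.44 to 1.17 over all settings, and 12.7% of tested loci had a larger difference in size. VP1 and SDR4 did not share an order of arrays: high-amylose replicate 1 was the lowest for VP1 and the highest for SDR4.

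**Figure D4:**
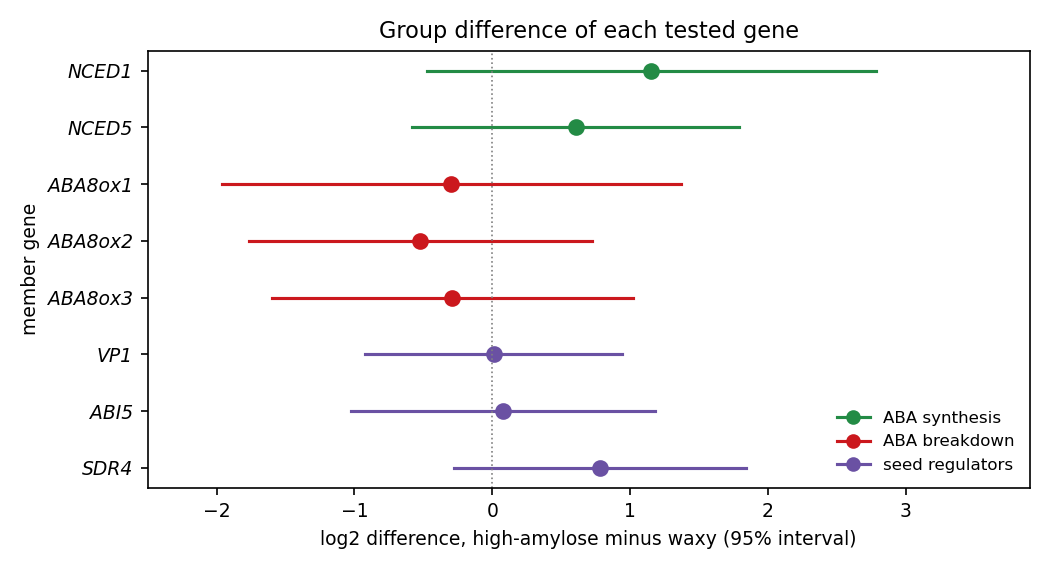
Fitted log2 difference, high-amylose minus waxy (horizontal axis), of each tested member (vertical axis), with bars for the 95% interval from limma over 3 and 2 arrays. All 8 intervals include 0, from NCED1 at 1.15 to ABA8ox2 at -0.52.

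Members were set beside another member or another listed ABA gene near them on the same chromosome. ABA8ox1 and NCED1, a breakdown and a synthesis gene, lie on chromosome 2 with 2 array loci between their locus names. Their differences were -0.30 and 1.15, each from the brightest probe. The other tested ABA8ox1 probe gave a measured 1.95, in part from dim readings, so the direction for ABA8ox1 depends on the probe. On chromosome 8, 6 array loci separate ABA8ox2 from TRAB1, a bZIP factor of ABA response, and the differences were -0.52 and -0.24. On chromosome 9, 5 array loci separate ABA8ox3 from bZIP72, and the differences were -0.29 and -0.02. High-amylose replicate 3, the low accession of ABA8ox2 and ABA8ox3, read -0.025 for TRAB1, the lowest of the 5 arrays and close to the 0.035 of replicate 2, and 2.06 for bZIP72, the highest of the 5 arrays.

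The loci whose profile was nearest to that of NCED1 were sought among the 22559 loci that every array detected clearly. After centring each on its own mean over the 5 arrays, the root mean square difference was 0.19 for LOC_Os07g16364, 0.21 for LOC_Os05g08210 and 0.25 for LOC_Os05g33700. All 3 were, like NCED1, lowest on waxy replicate 1 and highest on high-amylose replicate 3, which largely follows from how they were picked. The files do not pair these loci with a gene name.

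The rest of the ABA pathway was followed over 52 further loci, of which 47 were tested. Here too 0 passed the test in either direction. Of the 47, 27 were higher and 20 lower in high-amylose seed, with a median difference of 0.05 against 0.03 for all tested loci. An unadjusted limma p under 0.05 was found at 1 of the 47, against 3.40% of all tested loci. The groups did not overlap at 5 of them, each with high-amylose higher, or 10.6%, against the 8.52% and 5.03% of all loci. Both counts include NCED4, which was bright enough for a test only on high-amylose arrays.

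Of the genes that supply carotenoids and finish ABA synthesis, 7 of 12 were bright enough to be tested. Their median difference was -0.07, with 3 higher and 4 lower. NCED4, another cleavage enzyme of the family, had the smallest p. It read -2.41, -1.20 and -2.63 in high-amylose seed, against -3.59 and -4.11 in waxy seed, whose arrays did not detect it clearly. The measured difference was 1.77 (SE 0.52, limma adjusted p = 1.00), with 2 of the 3 high-amylose arrays well above background. NCED4 was thus tested only through the group in which it read higher. Its readings did not overlap between the groups, and for that reason nothing is read from this. The waxy arrays and the remaining high-amylose array have only upper limits, so the size of this difference is not firm. ABA3, which activates the cofactor of the last synthesis enzyme, was at -0.47 (SE 0.48). PSY3, a phytoene synthase at the head of the carotenoid pathway, was clear on 1 array of each group, and no difference is given for it.

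Among the ABA receptors, 8 of 8 were tested, 7 were higher and 1 lower, and their median was 0.12. PYL1 was at 0.36 (SE 0.43), PYL11 at 0.32 (SE 0.40) and PYL3 at -0.20 (SE 0.55). These sizes are below their standard errors. Clade A protein phosphatases 2C, the brake on the pathway, were tested at 9 of 9 loci, with 5 higher, 4 lower and a median of 0.03. PP2C50 was at 0.54 (SE 0.45), PP2C53, clear on 3 of the 5 arrays, at -0.24 (SE 0.44) and PP2C06 at 0.14 (SE 0.41). Their summed level spread from 20.6 to 53.1 times the 75th percentile within the high-amylose group alone, lowest on replicate 3, and from 27.6 to 42.4 times in the waxy group.

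All 10 SnRK2 kinases were tested, 5 higher and 5 lower, with a median of -0.01. SAPK8 was at -0.79 (SE 0.50), SAPK3 at -0.63 (SE 0.48) and SAPK2 at 0.28 (SE 0.43). Transcription factors of ABA response were tested at 7 of 7 loci, with 4 higher, 3 lower and a median of 0.20. The groups did not overlap at 3 of these, bZIP42 at 0.59 (SE 0.41), bZIP23 at 0.28 (SE 0.41) and bZIP12 at 0.26 (SE 0.40). That is 42.9% of the list, against 8.52% of all tested loci with high-amylose higher and 13.5% in either direction, and nothing particular to these 7 genes is read from it. The list's median was 0.02 without high-amylose replicate 2, 0.36 without replicate 1 and 0.07 without waxy replicate 1. The bZIP23 arrays all but touch, with 3.28 on both high-amylose replicate 1 and waxy replicate 1.

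The late embryogenesis abundant (LEA) genes, protective targets of ABA in maturing seed, were detected clearly on every array, with group differences near 0. Of 6 tested, 3 were higher and 3 lower, from -0.09 to 0.13, with a median of 0.01. Without waxy replicate 1 the median was -0.42, and without waxy replicate 2 it was 0.58. RAB16D was at 0.13 (SE 0.45), LEA3 at -0.07 (SE 0.46) and Em at -0.09 (SE 0.62). The arrays themselves differed more than the groups: RAB16A read 7.35, 8.10 and 6.81 in high-amylose seed, against 6.75 and 7.98 in waxy seed. High-amylose replicate 2 and waxy replicate 2 were the higher arrays for RAB16A. For NCED1 they read 2.29 and 1.63, below the 3.10 of high-amylose replicate 3. They lay above the 0.69 of high-amylose replicate 1 and the 0.12 of waxy replicate 1. Whether RAB16A and NCED1 vary together was not tested. The RAB16 genes are a tandem family, and cross-hybridisation between its copies was not tested. RAB16A and Em also stand among the embryo and aleurone markers above, so these lists are not separate measurements.

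**Figure D5:**
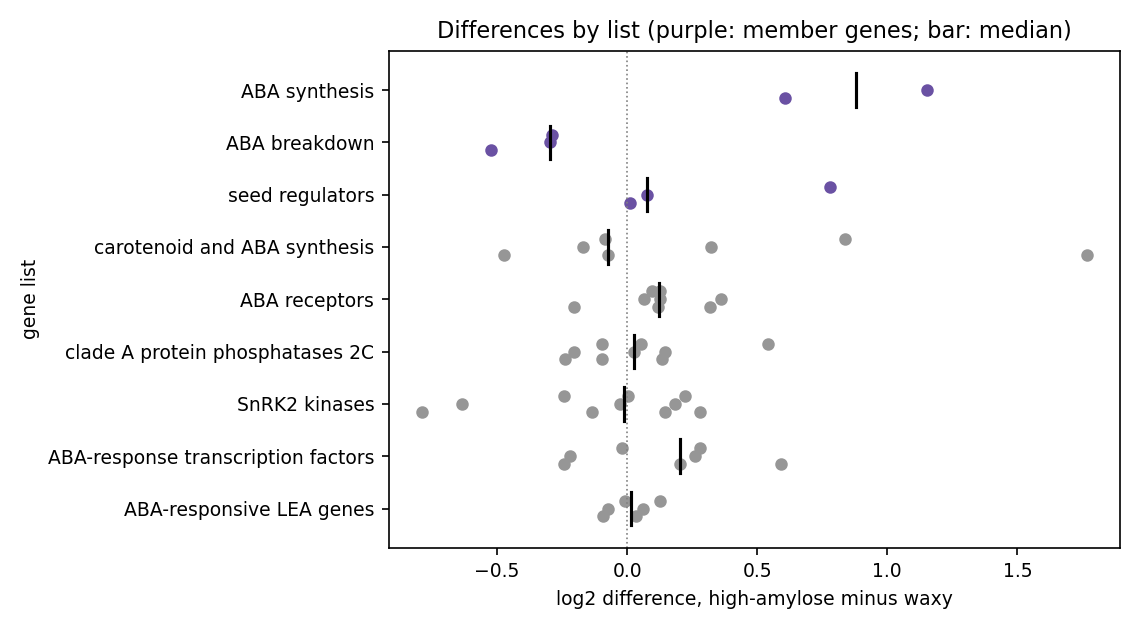
Log2 difference, high-amylose minus waxy (horizontal axis), of each tested gene in the 3 groups of members (purple) and the 6 other ABA lists (grey), with a black bar at each list's median. The medians of the 6 other lists lie between -0.07 and 0.20. The single point farthest from 0 is NCED4 at 1.77, which was not well above background on either waxy array.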

How the data were processed

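The authors deposited 1 scanner file per array, with intensity per spot from Agilent Feature Extraction 11.5.1.1, with background subtracted and trends across the slide removed, but no scaling between arrays, per the file headers. The deposited files also hold 0 or 1 flags per spot. They also deposited a log2 table, made with limma per the submitters' processing notes, with an unstated baseline per probe; its array differences followed quantile-normalized intensity (r of 1.00 over probes, which are not replicates; column medians -0.02 to 0.04). The grid belongs to build IRGSP5, no coordinates of which were used.

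Control spots were left out, and spots of a probe averaged without outliers. Values are log2 intensity minus the array's 75th percentile. Probes well above background on at least 2 arrays were tested (35634 of 59676), the brightest per locus standing for it. Limma 3.58.1 (R 4.3.3; lmFit and eBayes, two-sided) compared the groups, with Benjamini-Hochberg adjusted p under 0.05 over 28945 loci. The code was checked on simulated data. Exact permutation of 1 value cannot go below p = 0.1 here. The number of arrays limits precision (median SE 0.46). Replicate numbers follow accession order and pair nothing. Normexp used median signals. Alternatives were other scalings, filters, probe rules, scan-date terms and leaving out each array.

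Members and lists were chosen with earlier results of these data known. Named genes are all members with every probe, 3 per ABA list and 2 per marker list by smallest p, and 3 nearest profiles of the widest-ranging member. Of 9 member names, 5 were found in the RefSeq table, on the chromosome of the locus name.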

Additional observations from a re-analysis of the deposited data

How the results depend on the processing

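Over the 15 alternatives, 0 members were called each time, and the median difference of the members and the contrast of synthesis with breakdown moved by less than the within-group SD, though the contrast, 1.25, was 0.12 with the term for high-amylose replicates 2 and 3 and 0.35 to 1.81 with 1 array left out. The count of called loci, 8 with all arrays, was 3 with quantile scaling and with the deposited log2 values, 1 with normexp and 0 with normexp and quantile scaling, 21 among loci detected on all 5 arrays, 0 with a term for high-amylose replicates 2 and 3, and 3 to 179 with 1 array left out (3 without high-amylose replicate 3, 5 without replicate 2, 72 without waxy replicate 1 and 179 without waxy replicate 2). Fits without a waxy array assume that the other one varies like the high-amylose arrays.

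Signs turned at 7 of the 8 tested members, NCED1 included; the cause was not tested. VP1 (0.01) became -0.064 with quantile scaling, -0.17 with normexp, -0.057 with normexp and quantile scaling, -0.065 in the deposited log2 values, -0.0092 with scan date as a random block and -0.33 with the term for replicates 2 and 3. That term also turned NCED1 to -0.18, NCED5 to -0.32 and ABA8ox3 to 0.33. The mean of its probes turned ABA8ox1 to 0.83. With 1 array left out, ABA8ox1 ranged from -1.13 to 0.27, ABA8ox2 from -0.80 to 0.0053, ABA8ox3 from -0.60 to 0.29, VP1 from -0.086 to 0.18 and ABI5 from -0.19 to 0.45. No paired analysis was possible because each array carried another accession, so no high-amylose array had a waxy partner.

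The normexp offset of 50 shrinks differences at dim probes by construction. Signal over background limits NCED3 and the third ABA8ox1 probe, which have only upper limits.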
